A study of Mus musculus with 25 samples.

Results

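Spin1 peaks that lay far from curated gene starts and also carried H3K4me3 are described here. They were chosen by a rule on measured values: the peak centre lay more than 10 kb from every curated RefSeq transcription start site (TSS), and the peak shared at least 1 bp with an H3K4me3 peak. This rule was met by 2149 of 17106 Spin1 peaks (12.6%, 95% Wilson interval from 12.1 to 13.1%). Of all Spin1 peaks, 91.3% shared a base with an H3K4me3 peak and 19.1% were distal, and since these values defined the regions, nothing is read from them. The series combines RNA-seq of mouse muscle with ChIP-seq of primary myoblasts, and this account rests on the ChIP-seq peak lists. Primary myoblasts are muscle precursor cells in culture, here prepared by preplating from limb muscle of C57BL/6 mice at an age of 10 days, with no other genotype or treatment given. Chromatin was precipitated with a custom Spin1 antibody or with a commercial antibody that the sample title gives as H3K4me3 and the antibody field as H3K4me, and 1 library of each was set against input DNA. Each list therefore comes from 1 preparation, the spread between cultures is not known, and all intervals cover counting error only.

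Spin1 is a chromatin reader whose Tudor-like domains bind histone H3 trimethylated at lysine 4 (H3K4me3). H3K4me3 marks the nucleosomes around active and poised promoters, above all those in CpG islands, and weaker H3K4me3 is also found at strong enhancers and at promoters of non-coding RNAs. In muscle precursors, enhancers are commonly bound by Myod1 and its E protein partners at E-boxes with the letters CAGCTG and by Fos and Jun dimers at AP-1 sites with the letters TGANTCA.

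The label of the cells was held against the promoters of marker genes. Within 1 kb of a TSS, both a Spin1 and an H3K4me3 peak were present for 37 of 40 myogenic regulators and 31 of 32 genes of the myoblast surface and of fusion, but for 9 of 30 neuronal, 5 of 30 blood cell and 4 of 30 liver genes. Over all 21000 protein-coding genes this was 11903 (56.7%), and 29 of 48 genes of the sarcomere and of contraction had both. Both peaks were also present for 19 of 20 AP-1 and immediate early genes and 36 of 38 genes of the extracellular matrix and cytoskeleton. High shares were therefore not limited to the lists of myoblast genes.

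The range of sequence under the distal regions is shown by 11 windows of 300 bp around the peak centre, given 5′ to 3′ on the plus strand of GRCm38 (mm10). The first pair held the most CpG dinucleotides, which are in capitals. The window nearest to Exoc3l2 lay in an exon 10.9 kb downstream of the curated TSS, with 56 CpG and a GC content of 81.7%. The window nearest to Naaladl2 was intergenic, 360 kb upstream of the curated TSS and 149 bp from a predicted start of the same gene, with 54 CpG.
Exoc3l2, chr7:19474018-19474317: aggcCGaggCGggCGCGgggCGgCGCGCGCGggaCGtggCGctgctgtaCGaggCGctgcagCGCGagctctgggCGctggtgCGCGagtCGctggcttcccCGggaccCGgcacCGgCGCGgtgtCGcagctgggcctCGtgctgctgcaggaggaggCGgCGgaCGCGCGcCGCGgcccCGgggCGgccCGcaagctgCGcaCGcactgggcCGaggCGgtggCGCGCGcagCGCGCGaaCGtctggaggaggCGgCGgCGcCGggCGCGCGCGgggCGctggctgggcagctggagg
Naaladl2, chr3:25143850-25144149: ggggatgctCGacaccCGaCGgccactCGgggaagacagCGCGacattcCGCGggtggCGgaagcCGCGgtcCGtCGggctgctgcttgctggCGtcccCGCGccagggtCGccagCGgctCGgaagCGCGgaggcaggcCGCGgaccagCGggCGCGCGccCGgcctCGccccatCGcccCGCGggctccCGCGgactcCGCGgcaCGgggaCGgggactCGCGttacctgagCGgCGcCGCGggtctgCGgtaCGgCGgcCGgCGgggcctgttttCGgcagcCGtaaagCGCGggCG

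The next 3 windows held the most E-boxes with the letters CAGCTG or CAGGTG, which are in capitals. The window nearest to Skint10 had 4 CAGCTG words, and those nearest to Septin9 and Myo18a each had 2 CAGCTG words and 1 CAGGTG word. The Skint10 window was intronic, 205 kb upstream of the TSS with which it was paired. The Septin9 and Myo18a regions had Spin1 scores of 3100.
Skint10, chr4:112979424-112979723: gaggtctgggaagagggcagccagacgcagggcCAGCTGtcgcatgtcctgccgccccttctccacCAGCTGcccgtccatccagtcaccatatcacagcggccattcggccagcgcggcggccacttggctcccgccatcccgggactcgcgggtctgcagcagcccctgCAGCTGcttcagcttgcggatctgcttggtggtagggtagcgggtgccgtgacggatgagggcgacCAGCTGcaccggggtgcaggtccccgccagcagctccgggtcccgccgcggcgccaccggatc
Septin9, chr11:117233935-117234234: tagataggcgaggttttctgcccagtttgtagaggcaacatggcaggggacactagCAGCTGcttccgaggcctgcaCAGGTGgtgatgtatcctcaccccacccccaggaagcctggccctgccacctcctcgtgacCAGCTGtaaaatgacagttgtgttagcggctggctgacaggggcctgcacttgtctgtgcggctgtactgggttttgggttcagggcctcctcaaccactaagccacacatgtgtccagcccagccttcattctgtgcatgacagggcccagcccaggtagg
Myo18a, chr11:77763618-77763917: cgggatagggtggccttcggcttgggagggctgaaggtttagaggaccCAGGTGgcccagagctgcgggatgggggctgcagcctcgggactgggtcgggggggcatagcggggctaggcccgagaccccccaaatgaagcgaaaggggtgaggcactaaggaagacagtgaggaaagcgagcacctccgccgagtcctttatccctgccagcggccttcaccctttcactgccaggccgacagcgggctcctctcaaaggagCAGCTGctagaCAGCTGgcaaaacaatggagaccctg

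A further pair is from the 32 windows with 2 AP-1 words, the most in any region, again in capitals. They were picked among these by Spin1 score. They lay 24.8 kb upstream of Gm30224 and 21.65 kb upstream of Ankdd1a, and had H3K4me3 scores of only 123 and 51.6 beside Spin1 scores of 591 and 484.
Gm30224, chr16:92620816-92621115: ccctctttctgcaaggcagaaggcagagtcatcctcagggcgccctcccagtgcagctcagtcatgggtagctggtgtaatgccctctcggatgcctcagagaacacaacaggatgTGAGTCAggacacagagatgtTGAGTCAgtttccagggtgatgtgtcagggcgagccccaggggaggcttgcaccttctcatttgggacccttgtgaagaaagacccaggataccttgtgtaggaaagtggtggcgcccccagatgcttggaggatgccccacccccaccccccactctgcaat
Ankdd1a, chr9:65541715-65542014: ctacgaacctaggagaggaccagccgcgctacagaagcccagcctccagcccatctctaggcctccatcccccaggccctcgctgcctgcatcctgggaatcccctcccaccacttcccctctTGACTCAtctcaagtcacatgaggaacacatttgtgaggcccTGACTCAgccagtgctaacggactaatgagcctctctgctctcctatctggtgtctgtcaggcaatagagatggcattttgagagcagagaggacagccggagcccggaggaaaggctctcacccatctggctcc

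The last 4 windows lie near myogenic regulators, with E-boxes and AP-1 words in capitals. They range from the CpG-rich window near Tcf12, with 44 CpG and 1 CAGCTG word, to the window near Tead1, with 4 CpG. The Pax7 window has 1 AP-1 word, and those near Meox1 and Tead1 have neither word.
Pax7, chr4:139821965-139822264: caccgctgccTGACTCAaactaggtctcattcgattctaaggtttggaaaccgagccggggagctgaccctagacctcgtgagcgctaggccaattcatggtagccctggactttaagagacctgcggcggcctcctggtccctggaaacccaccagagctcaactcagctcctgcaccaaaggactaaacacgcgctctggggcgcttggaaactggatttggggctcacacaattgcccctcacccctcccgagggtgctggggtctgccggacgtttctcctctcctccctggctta
Meox1, chr11:101881590-101881889: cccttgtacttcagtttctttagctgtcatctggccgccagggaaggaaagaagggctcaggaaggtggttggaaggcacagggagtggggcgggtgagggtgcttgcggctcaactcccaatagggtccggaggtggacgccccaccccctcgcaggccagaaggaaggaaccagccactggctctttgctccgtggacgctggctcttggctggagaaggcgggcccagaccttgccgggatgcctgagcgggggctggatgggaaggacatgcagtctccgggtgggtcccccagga
Tead1, chr7:112662829-112663128: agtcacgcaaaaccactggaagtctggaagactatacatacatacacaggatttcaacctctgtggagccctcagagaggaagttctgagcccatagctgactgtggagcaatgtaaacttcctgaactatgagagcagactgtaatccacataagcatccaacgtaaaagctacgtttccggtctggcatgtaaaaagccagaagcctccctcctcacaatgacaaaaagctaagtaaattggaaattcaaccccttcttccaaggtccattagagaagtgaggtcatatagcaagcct
Tcf12, chr9:72133125-72133424: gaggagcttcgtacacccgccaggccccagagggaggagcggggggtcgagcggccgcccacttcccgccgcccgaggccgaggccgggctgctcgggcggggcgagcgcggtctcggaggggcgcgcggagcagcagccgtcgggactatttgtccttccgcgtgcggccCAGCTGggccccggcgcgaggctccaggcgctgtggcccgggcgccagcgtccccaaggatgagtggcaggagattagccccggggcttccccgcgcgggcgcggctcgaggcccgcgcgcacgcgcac

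Most distal regions were weak and narrow beside Spin1 peaks at promoters. The peak score expresses, on a logarithmic scale, how improbable the enrichment over input is, and it depends on depth. It accumulates at 3100, called the ceiling here, although values up to 3233 occur among Spin1 peaks. The distal regions with H3K4me3 had a median Spin1 score of 190 (quartiles 119.5 and 444) and a median width of 903 bp (689 and 1336 bp). Medians were 309 and 1133 bp for Spin1 regions with H3K4me3 at 1 to 10 kb from a TSS (n = 2624), and 2438 and 2108 bp for those within 1 kb (n = 10848). Distal Spin1 regions without H3K4me3 (n = 1121) were lower still, with medians of 118 and 696 bp. A score of 3100 or more was reached by 67 distal regions with H3K4me3, or 3.12%, and by 42.0% of the regions within 1 kb. Scores and widths belong to the peak call itself and are given as a description.

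The H3K4me3 peak was usually wider than the Spin1 peak. Of the 2149 regions, 1392 (64.8%) lay wholly inside their H3K4me3 peak, 1987 (92.5%) were covered by H3K4me3 over 50% or more of their width, and 21 had H3K4me3 over less than 10%. The partner had a median width of 1861 bp and a median score of 1931, and its centre lay a median of 221.5 bp from that of the Spin1 peak. The partner score was at or above 3100 for 889 regions (41.4%) and under 100 for 180. Only 9 regions shared an H3K4me3 peak that reached within 1 kb of a curated TSS. The regions drew on 2013 different H3K4me3 peaks, of which 123 held 2 or more Spin1 peaks and 1 held 6. Seen from H3K4me3, a Spin1 peak was present at 2022 of 11228 distal H3K4me3 peaks (18.01%, 17.31 to 18.73%). The distal H3K4me3 peaks without Spin1 were weaker and narrower than the partners, with a median H3K4me3 score of 168 and a median width of 875 bp. Comparisons with that class below are not matched for score or width.

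**Figure D1:**
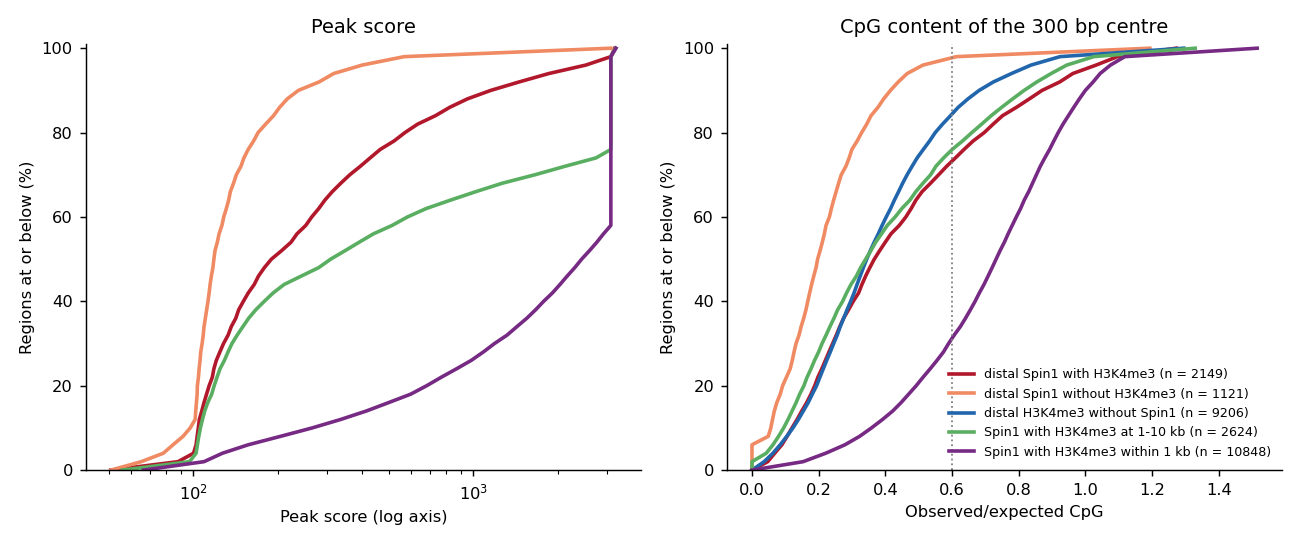
Cumulative share of regions by peak score (left, log axis) and by observed/expected CpG of the 300 bp around the centre (right, dotted line at 0.6), with 1 line per class of regions; H3K4me3 regions without Spin1 are left out on the left since their score is from the other list. The distal Spin1 regions with H3K4me3 lie between the distal Spin1 regions without H3K4me3 and the regions nearer to a TSS in score, with medians of 118, 190, 309 and 2438, and have higher CpG content than those without H3K4me3.

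The distance rule cut through a continuous range. Just inside 10 kb were regions near Aacs (10.02 kb, Spin1 score 115) and Ndufa6 (10.04 kb, 105). The closest regions with H3K4me3 that the limit left out were near Itgav (just under 10 kb, score 111), Gapdh (9.98 kb, 141) and Abl1 (9.94 kb, 102). The median distance of the 2149 regions to a curated TSS was 31.4 kb, with quartiles of 17.9 and 60.8 kb and a maximum of 1511000 bp, rounded to kb. At 50 kb or less lay most of them, and 31.0% lay farther than 50 kb (29.1 to 33.0%), against 41.2% of distal Spin1 regions without H3K4me3, a difference of -10.2 percentage points (95% Newcombe interval from -13.7 to -6.70). The difference from distal H3K4me3 regions without Spin1 (n = 9206; 37.8%) was -6.74 points (-8.91 to -4.52). Beyond the limit itself, distance was not used to choose the regions.

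The score of the regions hardly moved with distance. The median Spin1 score was 184 at 10 to 20 kb (n = 633), 194 at 20 to 50 kb (n = 849), 194 at 50 to 100 kb (n = 384), 194 at 100 to 200 kb (n = 209) and 171 farther out (n = 74).

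Many of the regions lay near an annotated transcript start that the curated catalogue does not hold, and transcription from these starts was not measured here. A predicted RefSeq start was within 1 kb of 327 regions (15.2%, 13.8 to 16.8%), against 3.84% of distal Spin1 regions without H3K4me3 and 7.50% of distal H3K4me3 regions without Spin1. The differences were 11.4 points (9.43 to 13.2) and 7.72 points (6.16 to 9.39). Spin1 regions with H3K4me3 at 1 to 10 kb had 13.9%, which differed by 1.31 points, with an interval from -0.70 to 3.33 that includes 0. A start of a GENCODE M21 transcript was within 1 kb of 524 regions (24.4%, 22.6 to 26.2%), again above the 5.35% and 14.9% of both distal classes. Together, 644 regions (30.0%, 28.1 to 31.9%) had a start from either catalogue within 1 kb, of which 207 were in both, 120 in predicted RefSeq only and 317 in GENCODE only. Spin1 regions with H3K4me3 at 1 to 10 kb had 34.1%, and the regions minus that class differed by -4.14 points (-6.78 to -1.48). No start in either catalogue was found within 1 kb of the centre of the other 1505 regions, of which 73 lay within 2 kb of a predicted start.

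The kinds of these starts were mixed. The nearest predicted transcript was an mRNA for 164 of the 327 regions and a long non-coding RNA for 135. Among the 524 GENCODE starts, 146 were of protein-coding transcripts, 91 of lincRNAs, 84 of processed transcripts and 72 of processed pseudogenes. A RefSeq pseudogene was within 1 kb of 99 regions (4.61%), against 1.52% of distal Spin1 regions without H3K4me3 and 6.58% of distal H3K4me3 regions without Spin1, which differed by 3.09 points (1.88 to 4.21) and -1.98 points (-2.94 to -0.89). Reads from a pseudogene and its parent gene can be exchanged where the sequences are alike, and how far this touches these regions was not tested.

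Regions at a known start were the stronger ones. Of the 67 regions with a score of 3100 or more, 48 lay at a start of either catalogue. The median Spin1 score was 327 for the 644 regions at a start and 167 for the other 1505, and the median H3K4me3 score was 3100 and 1076. When the regions were split by Spin1 score into 3 bins of 716 or 717, a start was present at 20.5% (17.7 to 23.6%), 23.9% (20.9 to 27.1%) and 45.5% (41.9 to 49.1%) of the regions, so that the rise came with the highest bin.

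For 104 of the 327 regions, the predicted start was that of the same gene whose curated TSS was nearest. These 104 regions belonged to 91 genes, 55 lay upstream and 49 downstream of the curated TSS, and their median distance from it was 31.4 kb. Their median Spin1 score was 593, and 14 of them were at or above 3100. The first by score was Mga, a bHLH and T-box protein that pairs with Max (23.98 kb upstream, score 3200). Naaladl2 (360 kb upstream, 3114) and Cdon (27.3 kb upstream, 3100) came next. Scores of 3100 and above are not read as an order of strength, since scores accumulate at 3100. Cdon is a cell surface receptor that promotes myogenic differentiation, and its region was 7358 bp wide under an H3K4me3 peak of 9086 bp, 638 bp from a predicted Cdon start.

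Other regions of this kind at the ceiling of 3100, chosen after their values were seen, lay 13.2 kb upstream of Fat1 (an atypical cadherin, 244 bp from its predicted start), 73.6 kb upstream of Tln2 (talin 2, 696 bp), 22.2 kb upstream of Nsd2 (a histone H3 lysine 36 methyltransferase, 165 bp) and 34.4 kb upstream of Adgrl2 (latrophilin 2, 27 bp). The centre of the regions at Tln2, Adgrl2 and Nsd2 held 25, 35 and 43 CpG, and that of Fat1 held 12.

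**Figure D2:**
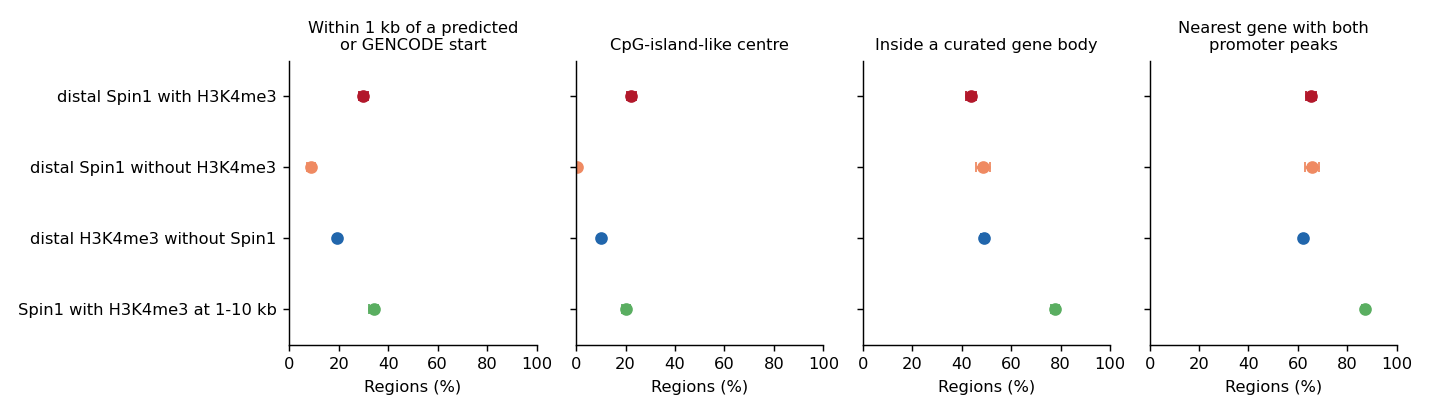
Share of regions (%, points) with 95% Wilson intervals (bars, often smaller than the point) for 4 features in 4 classes of regions. Distal Spin1 regions with H3K4me3 are at 30.0% for a known start and 22.3% for a CpG-island-like centre, above both other distal classes, while all 3 distal classes lie between 43.7 and 49.0% for gene bodies and between 62.2 and 65.7% for the nearest gene with both promoter peaks.

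CpG-rich centres were more frequent in the regions than in the other distal classes, which were not matched to them for peak score. A centre was called CpG-island-like when its 300 bp had a GC content of 50% or more and an observed/expected CpG ratio of 0.6 or more. This held for 480 regions (22.3%, 20.6 to 24.1%), for 4 of 1121 distal Spin1 regions without H3K4me3 (0.357%, 0.139 to 0.914%) and for 930 of 9206 distal H3K4me3 regions without Spin1 (10.1%, 9.50 to 10.7%). The differences were 22.0 points (20.2 to 23.8) and 12.2 points (10.4 to 14.1). Spin1 regions with H3K4me3 at 1 to 10 kb had 20.1%, a difference of 2.25 points with an interval from -0.07 to 4.60, and those within 1 kb had 64.5%. The median observed/expected CpG was 0.367 in the distal regions with H3K4me3, 0.197 in those without, 0.344 in distal H3K4me3 regions without Spin1 and 0.732 within 1 kb of a TSS.

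CpG-island-like centres were more frequent at known starts but were not limited to them. They made up 39.3% (35.6 to 43.1%) of the 644 regions at a start and 15.1% (13.4 to 17.0%) of the 1505 others. The others minus those at a start differed by -24.2 points (-28.4 to -20.05). Across the 3 bins of the Spin1 score they rose from 11.7% (9.58 to 14.3%) through 19.0% (16.3 to 22.0%) to 36.3% (32.8 to 39.9%). The interval of the lowest bin contains the 10.1% of distal H3K4me3 regions without Spin1 and lies above the 0.357% of distal Spin1 regions without H3K4me3.

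The letters of promoter elements were counted next. The GC box GGGCGG, read by Sp factors, was in 23.5% of the 300 bp centres (21.7 to 25.3%), against 4.28% in distal Spin1 regions without H3K4me3, 14.9% in distal H3K4me3 regions without Spin1 and 37.0% of all Spin1 peaks. Among centres that were not CpG-island-like it was in 13.3%, 4.21% and 11.6%, and the difference from distal Spin1 regions without H3K4me3 was 9.09 points (7.05 to 11.1). The TATA box letters TATAAA were in 10.3% of the regions and in 6.92% of all Spin1 peaks. In distal Spin1 regions without H3K4me3 they were in 15.9%, and the regions minus that class differed by -5.595 points (-8.16 to -3.16). Among centres that were not CpG-island-like the shares were 11.9% in the regions and 15.9% in that class, a difference of -4.07 points (-6.77 to -1.46). The CCAAT box was in 28.3% of the regions and 32.9% of that class. No control word was counted for these elements, and the median GC content of the centres was 52.7% in the regions and 47.3% in that class.

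E-boxes of the myogenic kind were more frequent than in distal Spin1 regions without H3K4me3, and so was a control word of the same letters. CAGCTG, which reads the same on both strands, was in the centre of 489 regions (22.8%, 21.03 to 24.6%) and of 16.8% of all Spin1 peaks. It was in 18.8% of distal Spin1 regions without H3K4me3, 3.93 points less (0.98 to 6.77; with a distance limit of 5 kb, -0.27 to 5.03), and in 24.7% of distal H3K4me3 regions without Spin1, 1.91 points more, with an interval for the regions minus that class from -3.85 to 0.10. The control word CTGCAG, a rearrangement of the same letters, was in 20.6% of the regions and differed from distal Spin1 regions without H3K4me3 by 5.31 points (2.54 to 7.97). Among centres that were not CpG-island-like, the same differences were 5.14 points (2.02 to 8.17) for the E-box and 5.57 points (2.66 to 8.40) for the control word. Against Spin1 regions with H3K4me3 at 1 to 10 kb the E-box differed by 5.87 points (3.60 to 8.16) and the control word by 2.08 points (-0.17 to 4.36). The other E-box, CAGGTG or CACCTG on the opposite strand, was in 15.1% of the regions and in 18.3% of distal H3K4me3 regions without Spin1, a difference of -3.23 points (-4.88 to -1.47).

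The density of words around the centre was compared within 200 bp of it and at 1000 to 1500 bp from it. CAGCTG had 0.884 matches per kb inside and 0.578 outside, a ratio of 1.53, beside 1.44 for the control word. In distal H3K4me3 regions without Spin1 the ratios were 1.95 for the E-box and 1.60 for the control word, and in distal Spin1 regions without H3K4me3 they were 1.35 and 1.14.

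AP-1 words were concentrated at the centres, where their control word was not. TGANTCA, which reads the same on both strands, had 0.515 matches per kb within 200 bp and 0.327 at 1000 to 1500 bp, a ratio of 1.58, while ACTNAGT, the same word read backwards, had a ratio of 0.734. The 300 bp centre held TGANTCA in 293 regions (13.6%, 12.3 to 15.2%), against 6.998% of all Spin1 peaks. This was above distal H3K4me3 regions without Spin1 (11.4%) by 2.28 points (0.75 to 3.93) and above regions at 1 to 10 kb (9.64%) by 3.99 points (2.17 to 5.85), and below distal Spin1 regions without H3K4me3 (17.6%) by 3.94 points (1.34 to 6.66). The control word was in 6.38%, 6.57%, 6.86% and 8.39% of the same classes. Windows were centred on the Spin1 peak, but on the H3K4me3 peak for distal H3K4me3 regions without Spin1. In that class TGANTCA had 0.378 matches per kb at 0 to 100 bp and 0.543 at 200 to 300 bp, beside 0.479 and 0.451 in the regions. The excess over that class in the 300 bp centre thus did not hold in every bin. At -400 to -300 bp the regions had 0.558 and that class 0.495 matches per kb, so the order varied with distance.

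Part of the AP-1 pattern moved with CpG content and with the starts. Among centres that were not CpG-island-like, TGANTCA was in 16.3% of the regions and 17.6% of distal Spin1 regions without H3K4me3. The interval of this difference, -4.23 to 1.48 points, included 0. The difference from distal H3K4me3 regions without Spin1 was 4.03 points (2.19 to 6.01), again with windows centred on different kinds of peak. The word was in 15.8% of the regions with no known start and in 8.54% of those at a start, a difference of 7.27 points (4.29 to 10.0). By bins of the Spin1 score it was in 14.9%, 16.6% and 9.34% of the regions. A match is a match of letters only, and no binding of Fos or Jun was measured.

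**Figure D3:**
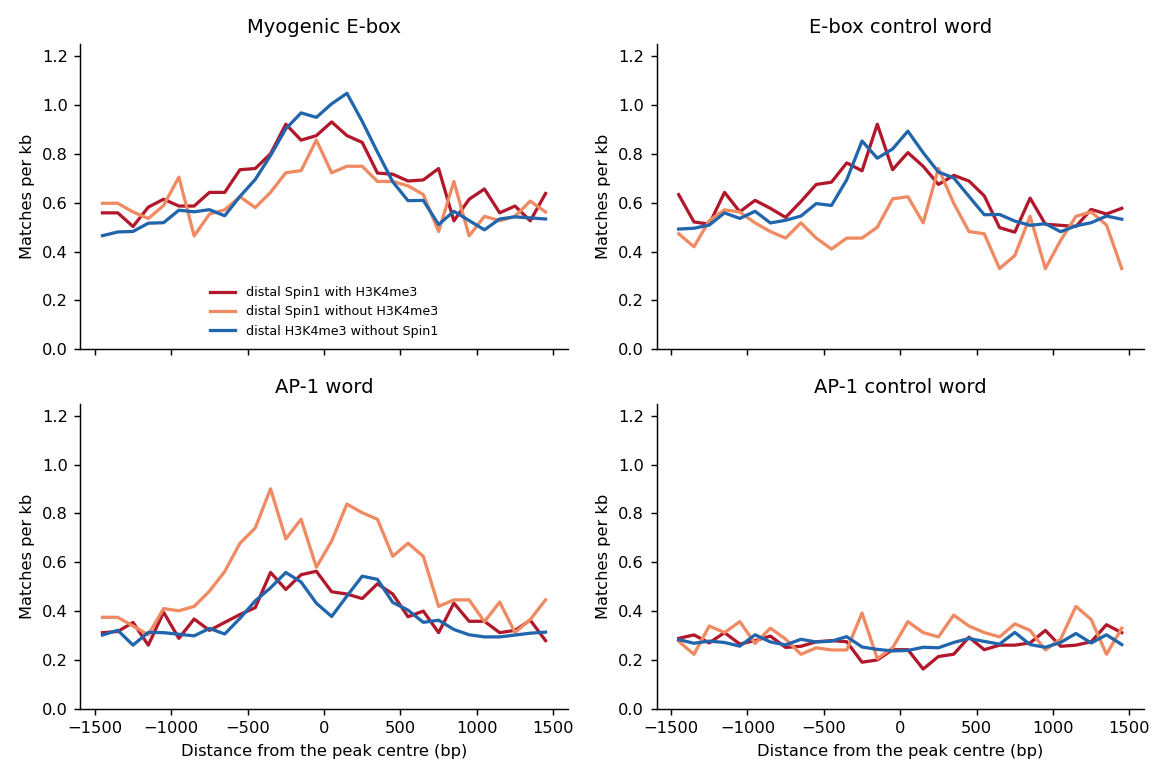
Matches per kb (vertical axis) of 4 words in bins of 100 bp against the distance from the peak centre in bp (horizontal axis), for the 3 distal classes (lines). The AP-1 word is denser within about 500 bp of the centre in all 3 classes, most in distal Spin1 regions without H3K4me3, and its control word is not; the E-box and its control word both rise towards the centre in the regions with H3K4me3.

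Within genes, the regions were slightly less frequent than the other distal classes. The centre of 939 regions (43.7%, 41.6 to 45.8%) lay in a curated gene body, of which 869 were intronic and 70 exonic, against 48.6% for distal Spin1 regions without H3K4me3 and 49.0% for distal H3K4me3 regions without Spin1. The differences were -4.92 points (-8.51 to -1.33) and -5.31 points (-7.63 to -2.97). For a distance limit of 20 kb, the interval against distal Spin1 regions without H3K4me3 was -7.44 to 0.77. The first intron of a transcript held 15.4% of the regions, which differed from both other distal classes by intervals that include 0. Relative to the nearest TSS, 944 regions lay upstream and 1205 downstream. Repeats marked in the reference covered a median of 11.5% of a region, and 81 regions (3.77%) were more than 50% repeat.

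The gene next to a region usually had Spin1 and H3K4me3 at its own promoter. This held for 1401 regions (65.2%, 63.2 to 67.2%) and for 1035 of the 1610 different genes with which the 2149 regions were paired, where 50.6% of all 26180 curated genes had both. Distal Spin1 regions without H3K4me3 had 65.7%, a difference of -0.46 points (-3.86 to 2.99), and distal H3K4me3 regions without Spin1 had 62.2%, a difference of 2.995 points (0.73 to 5.22). The regions at no known start were paired with such a gene more often (68.0%) than those at a start (58.5%), by 9.50 points (5.05 to 13.98). Pairing by distance says nothing of which gene a region acts on. A gene had 1 region in 1251 cases and up to 10.

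Genes of the myoblast were among those with a region nearby. The lists were compared with all 21000 protein-coding genes, of which 1244 (5.92%) were the nearest gene of a region. At least 1 region was paired with 9 of 40 myogenic regulators (22.5%, 12.3 to 37.5%), 9 of 32 genes of the myoblast surface and of fusion (28.1%, 15.6 to 45.4%), 8 of 20 AP-1 and immediate early genes (interval 21.9 to 61.3%) and 6 of 38 genes of the extracellular matrix and cytoskeleton (15.8%, 7.44 to 30.4%). Of 48 sarcomere genes 4 had a region (8.33%), as did 2 of 30 neuronal and 2 of 30 liver genes, and 0 of 30 blood cell genes, for which the interval reaches 11.4%. Of the 40 regulators, 19 also had a distal H3K4me3 region without Spin1, against 20.5% of all protein-coding genes, and 19 of the 32 surface and fusion genes had one too. A distal Spin1 region without H3K4me3 was paired with 6 of the 40 regulators, 5 of the 32 surface and fusion genes, 4 of the 20 AP-1 and immediate early genes and 6 of the 38 matrix and cytoskeleton genes, against 3.48% of all protein-coding genes. Genes with large surroundings are more often the nearest gene, and this was not corrected for.

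The myogenic regulators with regions were 9 genes with 20 regions in all. Closest to its TSS was Zeb1, an E-box repressor that holds back myogenic differentiation, with a region 10.6 kb downstream in an intron (Spin1 score 108, H3K4me3 score 3100). Pax7, the paired box factor of muscle stem cells, had a region of 1922 bp in an intron, 10.9 kb downstream, with a Spin1 score of 676. It lay inside an H3K4me3 peak of 17266 bp at the score ceiling. That H3K4me3 peak also covers the curated Pax7 TSS, so the region shares its H3K4me3 peak with the promoter. Meox1, a homeobox gene of the somite, had a weak region 12.6 kb downstream (Spin1 score 117, H3K4me3 score 258). A second Zeb1 region lay 227 kb downstream (Spin1 score 355). Of these regions, that of Pax7 had the highest Spin1 score, and the window printed above holds 14 CpG and 1 AP-1 word.

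The E protein genes, whose products pair with Myod1, had the strongest regions of the list. The Tcf12 region lay 21.5 kb upstream, between genes, with a Spin1 score of 2529 and an H3K4me3 score of 3100, and no start of either catalogue was within 1 kb of it. Its window is CpG-island-like, with a GC content of 78.0%. Tcf4 had 5 regions from 146 kb upstream to 248 kb downstream, all at a known start, with Spin1 scores of 162, 226.5, 98.6, 187 and 3100 in order along the gene. The last was 4566 bp wide and lay 211 bp from a protein-coding Tcf4 start.

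The regions of Tead1, Rbpj, Runx1 and Eya4 had Spin1 scores from 100.8 to 386, on both sides of the median of 190. Tead1, which binds MCAT sites with Yap1, had 4 regions, at 58.7 and 16.4 kb upstream and 18.3 and 128 kb downstream, with Spin1 scores of 139, 386, 292 and 109. Rbpj, the DNA-binding partner of Notch, had regions 29.8 and 46.3 kb upstream with scores of 100.8 and 268. Runx1 had an adjoining pair 126 and 127 kb upstream that shared 1 H3K4me3 peak, with scores of 119.9 and 198.5. Eya4, a transcriptional coactivator of the muscle lineage, had regions 100.5 kb upstream and 171 kb downstream with scores of 123 and 199.

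Of a list of 18 genes taken from those that the study names as changed in Spin1-deficient fetal muscle, 1 had a region (5.56%, 0.988 to 25.8%), against the 5.92% of all protein-coding genes, and these values come from cultured myoblasts only. Genes named for the muscle of young mice after birth are not in this list. Ankrd2, a stretch-responsive ankyrin repeat protein of the sarcomere, was the nearest curated TSS of 3 regions, 14.3, 18.2 and 20.8 kb upstream, with Spin1 scores of 226, 1759 and 422. The strongest of them lay 709.5 bp from a predicted start of Ubtd1, in whose introns all 3 lie.

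The regions of the 8 AP-1 and immediate early genes had Spin1 scores from 102 to 1013. Fos had 3 regions 11.8 to 18.1 kb from its TSS, with scores from 230 to 812. Nr4a1 had 2 regions 12.4 and 20.45 kb away (370 and 740), Klf4 had 3 at 17.4 to 581 kb (102 to 636), Batf had 2 (508 and 1013), and Egr1 and Fosb had 1 each (588 and 319). Ier2 had 2 regions 23.6 to 62.4 kb away (147 and 462), and Jun had 1 at 53.5 kb (148). Of the 8 genes in this list with a region, 7 had Spin1 and H3K4me3 at the promoter and Batf did not. Genes of the fusion list included Mymx, the fusion peptide of myoblasts, with 1 weak region 17.5 kb away (137), and Fgfr4, a growth factor receptor of myoblasts, with 1 at 18.9 kb (538).

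**Figure D4:**
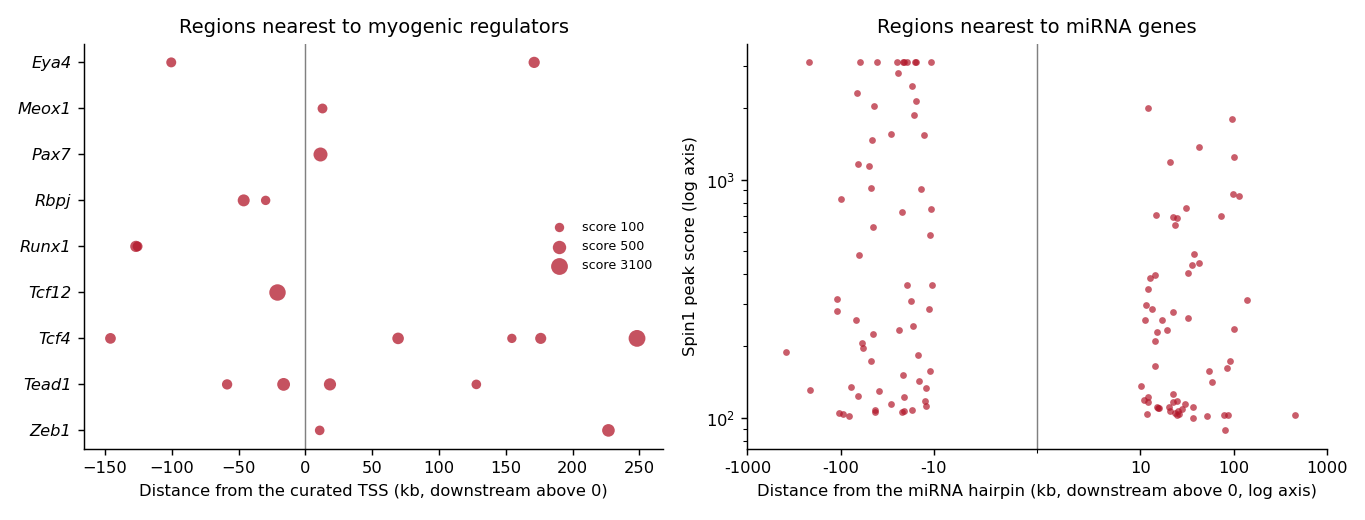
Left, regions nearest to myogenic regulators by signed distance from the curated TSS in kb, with points that grow with the logarithm of the Spin1 score; Tcf12 (2529) and the last Tcf4 region (3100) are the largest. Right, the 126 regions nearest to a miRNA gene by signed distance in kb (log axis) and Spin1 score (log axis), with all 9 at the ceiling of 3100 upstream of the miRNA.

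MicroRNA genes were next to more of the regions than of the other classes. Curated miRNA entries begin at the hairpin, which is cut from a longer primary transcript, so the start of that transcript can lie far upstream and count as distal. A miRNA was the nearest gene of 126 regions (5.86%, 4.95 to 6.94%), with 90 miRNA genes, against 3.39% of distal Spin1 regions without H3K4me3 and 3.74% of distal H3K4me3 regions without Spin1. The differences were 2.47 points (0.94 to 3.88) and 2.13 points (1.12 to 3.26). Of the 126, 64 lay upstream of the hairpin (50.8%), 11.3 points more than for distal H3K4me3 regions without Spin1 (1.16 to 21.2), while the interval against distal Spin1 regions without H3K4me3 (-9.23 to 25.3) included 0. Against the regions next to protein-coding genes the difference was 8.90 points, with an interval from -0.05 to 17.8 that includes 0. Among Spin1 regions with H3K4me3 next to a miRNA, 54.4% at 1 to 10 kb and 53.0% within 1 kb were upstream. These comparisons of position were chosen after values were seen. CpG-island-like centres were less frequent next to miRNAs (12.7%) than next to protein-coding genes (23.1%), a difference of -10.4 points (-15.6 to -3.199).

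The strongest regions next to miRNAs all lay upstream. All 9 of the 126 with a Spin1 score of 3100 or more were upstream of the hairpin, and so were 18 of the 20 with the highest scores. Those at the ceiling included regions upstream of Mir15a (15.9 kb, 628 bp from a start of its host Dleu2), Mir34a (19.1 kb, 299 bp from a start of Gm13067), Mir23a (10.8 kb, 105.5 bp from a start of Gm26887), Mir30a (15.4 kb), Mir30d (21.1 kb) and Mir29b-1 (20.9 kb). The region of Mir21a had a score of 2459 at 17.0 kb upstream, in an intron and 1149 bp from a start of Vmp1. MiR-29 and miR-23a are known from muscle as regulators of differentiation and of atrophy genes, and miR-34a as a target of p53.

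The widest regions were in part repetitive. The widest, 17790 bp near Rny3 on chromosome 6, had a Spin1 score of 184 and was 28.8% repeat, and the next, 11595 bp near Rn4.5s on the same chromosome, had a score of 2032 and was 29.9% repeat. Rny3 and Rn4.5s are genes of small structural RNAs. The third was 9913 bp wide, upstream of Mir29b-1, and the fourth was 9493 bp wide, upstream of the curated Lncppara TSS. Both of these and the fifth, at Cdon, had scores of 3100 and 11.4 to 12.5% repeat. Of the remaining regions with the highest scores, those near Gm5535 (3181), Slc47a1 (3139) and Dab2ip (3126) lay 23.5 kb downstream, 30.4 kb upstream and 29.7 kb upstream of their TSS, and the last 2 were within 1 kb of a GENCODE start, at 473 and 696 bp.

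Some of the regions had a neighbour close by. Within 25 kb of another region lay 709 (33.0%), and of the 1729 groups formed at this limit, 1440 held 1 region. The largest held 15 regions in 88.9 kb between the curated TSSs of Wnt7b and Lncppara (chr15:85599174-85688079), which are transcribed away from each other. All 15 Spin1 peaks in this stretch had H3K4me3. Their Spin1 scores were 149, 118, 153 and 557 in the 13.2 kb nearest to Wnt7b, then 884 and 1147, then 3100, 110 and 107 under 1 H3K4me3 peak of 6387 bp, and 170, 3100, 3100, 103, 283 and 228 under another of 26583 bp. The 3 regions at the ceiling were thus on the Lncppara side. The 2 with a known start within 1 kb of the centre were those in the middle with 884 and 1147. The first region at the ceiling, 4167 bp wide, also covers a GENCODE start of Lncppara, 1616 bp from its centre. Wnt7b encodes a Wnt ligand, and its own promoter did not have both peaks.

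**Figure D5:**
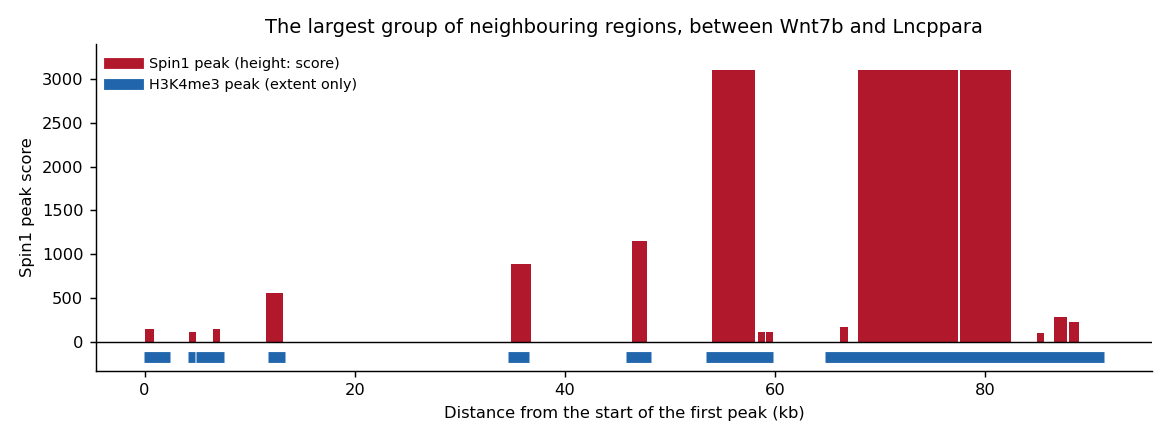
The 15 regions between the curated TSSs of Wnt7b (left) and Lncppara (right) by distance from the start of the first, in kb, with the Spin1 score as height; the bars below show the 8 H3K4me3 peaks with which they overlap. The 3 regions with a score of 3100 and the H3K4me3 peak of 26583 bp are on the right.

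The second largest group held 8 regions, and 4 groups tied at 6, of which the 3 with the highest median score were taken first. Between Snai1, an E-box repressor of the epithelial-mesenchymal transition, and Ube2v1 lay 8 regions in 44.4 kb (chr2:167553184-167597550) with Spin1 scores of 111 to 689 and H3K4me3 scores of at most 887. A group of 6 nearest to Gm41609 on chromosome 17 had scores of 148 to 371, and 1 of 6 near Gm39859 on chromosome 2 had 97.6 to 613, in which the strongest was 93.8% repeat. Inside Myh9, the non-muscle myosin heavy chain of the cytoskeleton, 6 regions in 26.1 kb (chr15:77798147-77824291) had scores of 102 to 483 under 4 H3K4me3 peaks. The fourth group of 6, added after its values were seen, spanned 25.5 kb (chr11:8444283-8469805) with Tns3 as the nearest gene, 197 to 220 kb away, and had scores from 110 to 3100.

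Some of the regions were already annotated as enhancers. Of 1019 mouse enhancers in the RefSeq annotation, 620 were from VISTA, where a sequence is tested for activity in transgenic mouse embryos. Such an element overlapped 55 regions (2.56%, 1.97 to 3.32%), against 0.892% of distal Spin1 regions without H3K4me3 and 1.09% of distal H3K4me3 regions without Spin1. The differences were 1.67 points (0.72 to 2.53) and 1.47 points (0.84 to 2.25). VISTA elements were chosen by others for testing, so these shares depend on that choice.

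By Spin1 score, the regions in enhancers were led by mm1473 near Nedd4, active in the limb of 11 of 11 embryos, with a Spin1 score of 2063. Next were mm418 near Frmd4a (1798), mm1444 near Irf2bpl (1287, hindbrain in 7 of 9) and mm1017 near Wnt10a (1096, heart in 3 of 9). Then came mm318 near Ski (994, heart in 6 of 6), mm1624 near Clmp (783, limb in 3 of 9) and mm1616 near Kirrel (766, limb in 6 of 8). The list of 10 closed with mm1481 near Mir6935 (763, dorsal root ganglion in 3 of 4), mm725 near Wee1 (708, heart in 9 of 17) and mm1452 near Mgst2 (689.5, neural tube in 5 of 6). Ski is a corepressor of TGF-beta signals that drives myogenesis when overexpressed. The elements thus came from several tissues, with the limb named for 3 of the 10.

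The tissues of these elements were compared with those of the 462 other distal VISTA elements. Limb activity was noted for 17 of the 51 with a region (33.3%) and for 28.4% of the others, a difference of 4.98 points (-7.16 to 19.2). Somites, from which trunk and limb muscle derives, were noted for 6 of 51 (11.8%) and 3.46%, a difference of 8.30 points (1.70 to 19.99). This was the only one of 15 tissue groups whose interval did not include 0, it rests on 6 elements, and the intervals are not adjusted for their number. Of the 6 elements, mm577 shares only 17 bp with its region.

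Along the genome, the share of Spin1 peaks that were distal with H3K4me3 was between 10.4 and 16.9% on each autosome, with 90 of 532 on chromosome 18. On chromosome X it was 22 of 411 (5.35%), or 0.129 regions per Mb, where the autosomes had 0.593 to 1.38 per Mb.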

How the data were processed

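Of the 25 samples of the series, the Spin1 and H3K4me3 ChIP-seq libraries of primary myoblasts were used, while 22 RNA-seq samples and the input sample are outside the scope here. The authors aligned reads with Bowtie2 to mm10, called peaks against input with MACS 1.4.2 and removed peaks with an FDR above 1%. The deposited value per peak is the MACS score, and reads per peak are not given, so that the depth is unknown. The 17106 Spin1 and 30763 H3K4me3 peaks were set against curated RefSeq transcripts (release 108.20200622, GRCm38), and predicted RefSeq and GENCODE M21 starts served as other catalogues. Which RefSeq release the authors used is not given in the sources used here. Shares have Wilson and differences Newcombe intervals at 95%. No p-value was computed, since each antibody gave 1 library. Neighbouring peaks share a locus, which the intervals do not cover. Sequences are from RefSeq.

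The regions, lists and tests were chosen with earlier results of these data known. Named by rule were the 8 regions with the highest score, the 5 widest, the 5 largest groups, those closest to myogenic regulators and to 18 genes named by the study for fetal muscle, those beside the 10 kb limit and 10 in enhancers. Of the regions the rule names, 1 is not reported here. Ctgf and Cyr61 had no match among the gene symbols. Other limits on distance, overlap, score, window and CpG content were tried. The GENCODE starts, control words and splits by CpG content, start and score were added after the data were seen. Functions were tested on simulated data. Python 3.11.15, NumPy 2.4.6, pandas 2.3.3, SciPy 1.17.1 and matplotlib 3.10.9 were used.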

Additional observations from a re-analysis of the deposited data

How the results depend on the processing

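No paired analysis was possible because each antibody gave 1 library and no result comes from a test between replicates. Of 42 alternatives over 6 results, 29 left the value within its interval, or the count within 1.5 times, and 13 did not. With only the 50% of Spin1 peaks that scored highest, 203 regions were left, of which 36.5% lay within 1 kb of a predicted start, 48.8% had a CpG-island-like centre, 20.7% held CAGCTG, 36.0% lay in a gene body and 55.7% had a nearest gene with both promoter peaks. This setting left 5 distal Spin1 regions without H3K4me3. With predicted starts counted as TSSs, 1357 regions were left. Within 2 kb in place of 1 kb of a predicted start lay 19.8%. CpG-island-like centres made up 24.2% with H3K4me3 over 50% or more of the peak, and 12.2% with an observed/expected CpG of 0.75 and a GC content of 55%. CAGCTG was in 34.8% of windows of 500 bp. With a limit of 5 kb, 46.7% lay in a gene body and 67.2% had a nearest gene with both promoter peaks. The CAGCTG difference from distal Spin1 regions without H3K4me3 was 2.43 points (-0.27 to 5.03) with a limit of 5 kb. That from distal H3K4me3 regions without Spin1 was -2.63 points with this limit and -2.18 points with the distance taken from the peak edge, with intervals that do not include 0. Scores stop near 3100, so differences among the strongest peaks are not resolved, and a region without a peak may hold signal under the threshold of the peak list.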
